A study of Mus musculus with 22 samples.

Results

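Myelin and oligodendrocyte lineage genes were followed in mouse striatum after thyroid hormone (TH). The 9 genes were chosen by name: Mbp, Mog, Mag, Mobp, Cnp, Opalin, Olig1, Olig2 and Pdgfra. They are 9 of the 55341 rows of the striatum count table, and all 9 were among the 15827 genes that passed a filter on low counts (a mean normalised count above 10). The table covers 10 of the 22 libraries of the series, all from whole striatum of wild-type C57BL/6J mice labelled male and 8 weeks old. The PTU group (2 libraries, replicates 3 and 6) came from animals made hypothyroid with propylthiouracil (PTU), a drug that blocks TH synthesis, for 2 weeks. The TH 12 h and TH 24 h groups (4 libraries each, replicates 1 to 4) came from animals taken that many hours after a single intraperitoneal injection of TH (T3 and T4). The design text describes hypothyroid mice given TH, while the labels of the striatum TH libraries give the time after TH and no PTU treatment. If the TH animals had received no PTU, the effects of TH and of PTU could not be told apart in a difference from the PTU group.

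Oligodendrocytes wrap axons in myelin, a stack of membrane that speeds the nerve impulse. They arise from precursor cells that divide in response to platelet-derived growth factor and carry its alpha receptor, encoded by Pdgfra. As precursors mature they lose that receptor and begin to make the proteins of the myelin sheath. TH is a classical signal for this maturation in the developing brain. The 9 genes fall along that path. Mbp and Mobp encode basic proteins that hold the layers of compact myelin together. Mog, Mag and Opalin encode membrane proteins of the myelin surface or of the oligodendrocyte membrane, and Cnp encodes an enzyme of the channels of cytoplasm that run through myelin. Olig1 and Olig2 encode transcription factors carried by the lineage from the precursor on, and Pdgfra marks the precursor. In bulk tissue, fewer cells of a type and less RNA per cell cannot be told apart, and this holds for every value given here.

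The libraries held 8056440 to 10163800 counts over all rows of the striatum counts. Several of them did not match their labels or stood apart. TH 24 h library 2 had 7.3% of the summed level of striatal projection neuron genes of the other 3 libraries of 24 h and 245% of that of cortical excitatory neuron genes, and its count of Drd2, the dopamine receptor of the indirect striatal pathway, was 31.4 against 832 to 2151 in the other 9. The 3 libraries of 12 h numbered 2 to 4 and TH 24 h library 4 also held more of Slc17a7, the vesicular glutamate transporter of cortical neurons (7599 to 9196, against 1814 to 5026 in the 5 remaining libraries and 12586 in TH 24 h library 2). Although all animals were labelled male, 6 libraries (PTU library 6, TH 12 h library 1 and all 4 of 24 h) were high in Xist, the RNA of the inactive X chromosome, and the other 4 expressed Y-linked genes instead. All libraries of 24 h were of the first kind. Hr, a direct TH target, was 38.8 and 57.4 under PTU and 245 to 381 in all 8 TH libraries, TH 24 h library 2 included. The labels do not say whether libraries of a group came from separate animals, so p-values measure the spread between these libraries.

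The members differed widely in level. Counts divided by the length of all exons of a gene, in normalised counts per kb, averaged 1883 for Mbp, 690 for Olig1, 525 for Mobp, 385 for Cnp, 203 for Mog, 164 for Olig2, 162 for Mag, 99.9 for Pdgfra and 12.6 for Opalin in the PTU libraries. Mbp was the highest and Opalin the lowest in all 10 libraries. Neighbours in this order were not all distinct: Mobp was above Cnp in 9 of 10 libraries, Mog above Olig2 in 9 of 10, and Olig2 above Mag in 7 of 10, whereas the other neighbours kept their order in all 10. The lineage was thus measured from precursor to myelin, with the reads of Opalin the scarcest, at 27 to 80 raw counts in a library.

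**Figure D1:**
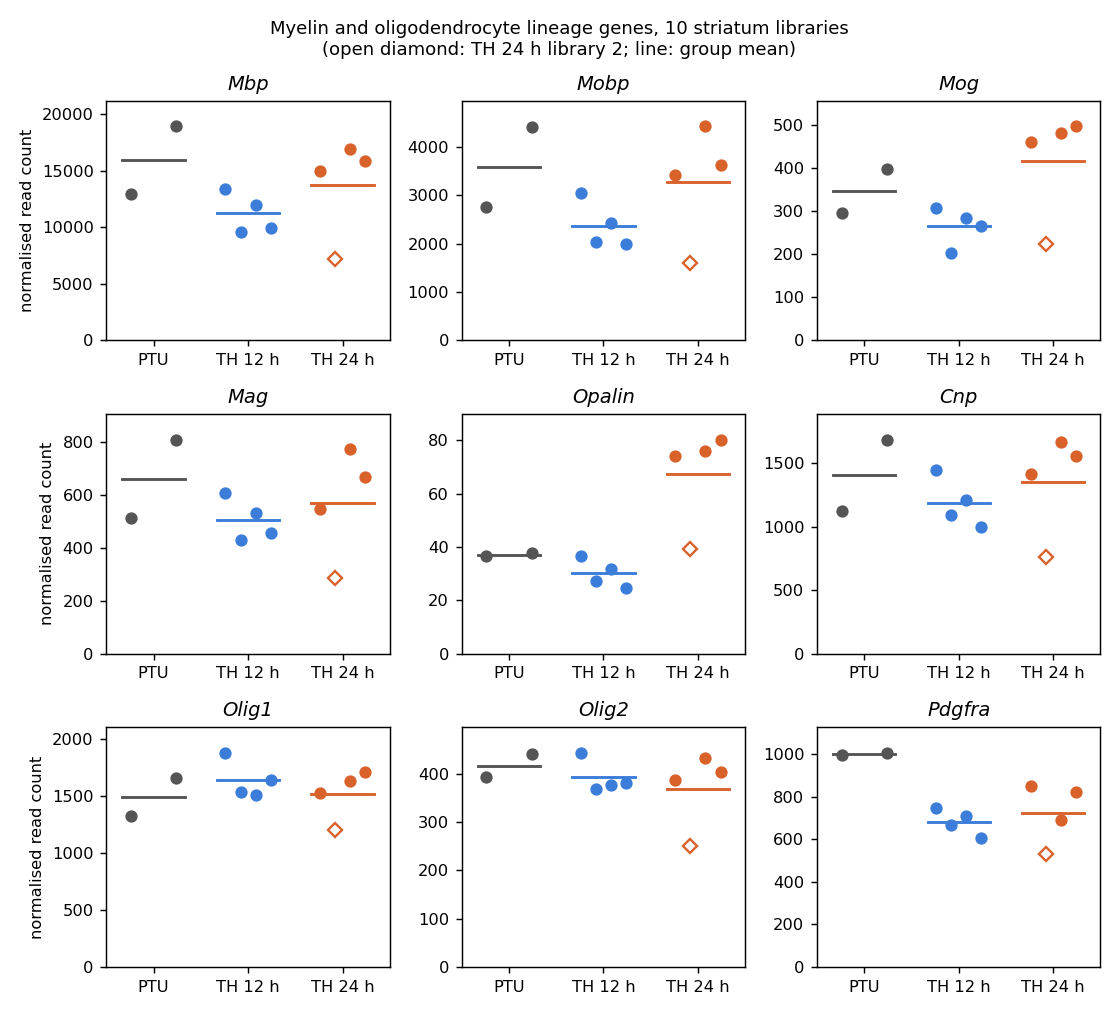
Normalised read counts (vertical axes, each from 0) of the 9 genes in the 10 striatum libraries, by group on the horizontal axis; each point is 1 library, the open diamond is TH 24 h library 2 and the line is the mean of the group. Opalin was above 39 in every library of 24 h and below 38 in every other library, and Pdgfra was near 1000 in both PTU libraries and at most 849 in all 8 TH libraries.

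Across all 10 libraries, no member passed the test in any comparison. The test was edgeR's quasi-likelihood test with Benjamini-Hochberg adjustment over all genes tested, at an adjusted p below 0.05. At 12 h against PTU it called 0.96% of all genes and 0 of the 9 members, and at 24 h against PTU 0.348% of all genes and 0 of 9. Between 24 h and 12 h it called 0% of genes, although 2309 had an unadjusted p below 0.05, and DESeq2 called 240. The median log2 difference over the 9 members was -0.38 at 12 h against PTU, -0.14 at 24 h against PTU and 0.19 at 24 h against 12 h, where that over all genes was 0.01, 0.02 and 0.01. At 12 h against PTU, 8 of 9 members had a negative difference, Olig1 being the exception. Other values moved with the 12 h libraries: the mitochondrial share of counts was 17.3% and 17.7% under PTU, 14% to 16.2% at 12 h, and 14% in TH 24 h library 2 against 17.5% to 18.3% in the other libraries of 24 h. The median differences at 12 h against PTU were also negative for the marker lists of striatal projection neurons (-0.87), choroid plexus (-0.44) and pericytes (-0.40). The same held for microglia (-0.22), endothelial cells (-0.21) and astrocytes (-0.05). Those of cortical excitatory neurons (0.68) and of fibroblasts of vessels and meninges (0.19) were positive. In all these lists 0 genes were called. The part of these values in the differences of the members was not tested.

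Without TH 24 h library 2, 3 members passed the test. Pdgfra was lower at 12 h than under PTU, 1 of 9 members where 3.22% of all genes were called lower. Opalin was higher at 24 h than under PTU, 1 of 9 where 0.637% of genes were called higher. Opalin and Mog were higher at 24 h than at 12 h, 2 of 9 where 0.208% of genes were called higher. Leaving out that library changed the estimate of the spread more than the differences at 12 h, to which it does not belong: the standard error of the Pdgfra difference fell from 0.16 to 0.11, while the difference itself stayed within 0.01.

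**Figure D2:**
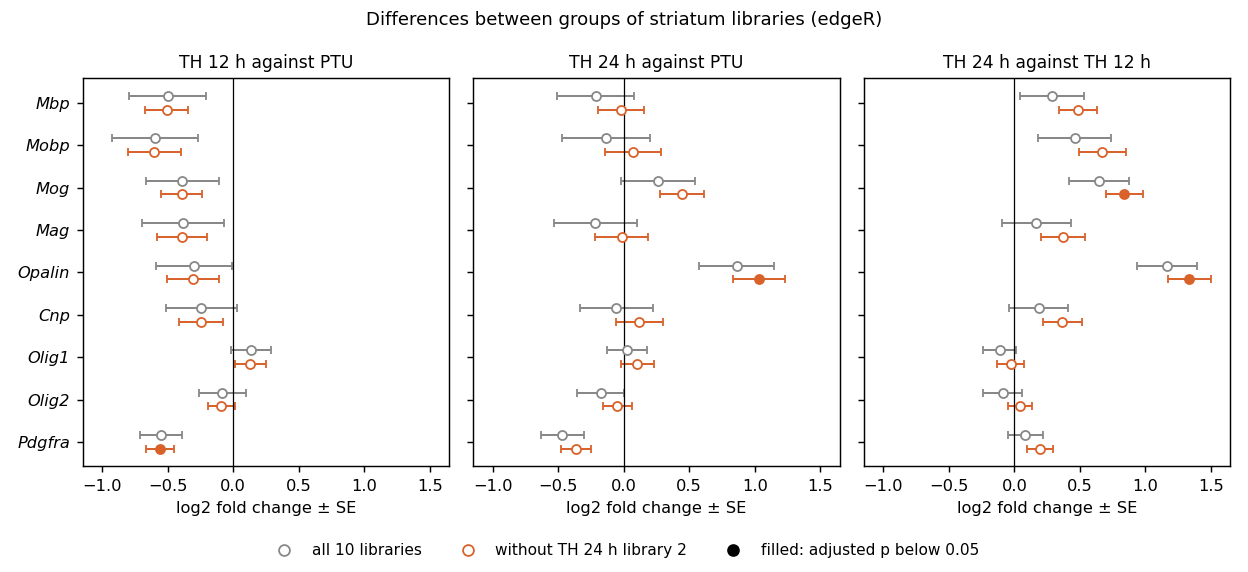
Log2 fold changes (horizontal axes) with their standard errors for the 9 genes in the 3 comparisons, with all 10 libraries in grey and without TH 24 h library 2 in orange; filled points had an adjusted p below 0.05. The filled points are Pdgfra at 12 h against PTU, Opalin at 24 h against PTU, and Opalin and Mog at 24 h against 12 h, all of them without that library.

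Opalin, which encodes a membrane glycoprotein of central myelin, gave the clearest pattern among the myelin genes. Its normalised count was 36.7 and 37.6 in the PTU libraries, 36.8, 27.4, 31.7 and 24.6 at 12 h, and 74.3, 39.2, 76.2 and 80.3 at 24 h. All 4 libraries of 24 h were above the other 6, by little in the case of library 2, an order that 0.872% of genes showed and that Opalin alone showed among the members. The means were 37.1 ± 0.643 (SD, n = 2), 30.1 ± 5.34 (SD, n = 4) and 67.5 ± 19 (SD, n = 4). With all libraries the log2 difference at 24 h was 0.86 ± 0.28 (SE) against PTU, with an edgeR adjusted p of 0.352, and 1.16 ± 0.23 against 12 h, with an adjusted p of 0.122. DESeq2 on all libraries did not call the difference from PTU (adjusted p 0.302) but called that from 12 h (adjusted p 0.00617). So did edgeR without the filter on low counts for 12 h (adjusted p 0.0474). Without TH 24 h library 2 the edgeR differences from PTU and 12 h were 1.03 ± 0.20 (adjusted p 0.043) and 1.34 ± 0.16 (adjusted p 0.0236), a rise of 2.04-fold and 2.53-fold. The 12 h libraries did not differ from PTU beyond the spread, at -0.31 ± 0.20 (adjusted p 0.363).

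Opalin rested on few reads. The 35 raw counts of TH 24 h library 2 have an exact 95% Poisson interval of 24.4 to 48.7, which holds the counts of both PTU libraries (35 and 38), while the 64 counts of TH 24 h library 3, the fewest of the other libraries of 24 h, have one of 49.3 to 81.7. These intervals cover counting error only. Within the Xist-high libraries Opalin was 37.6 under PTU, 36.8 at 12 h and 39.2 to 80.3 at 24 h. With a term for Xist-high libraries in the fit and TH 24 h library 2 left out, the difference from PTU was 0.90 ± 0.22 (adjusted p 0.119) and that from 12 h was 1.15 ± 0.22 (adjusted p 0.11), so both calls were lost although the differences stayed positive.

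Mog, whose product sits on the outermost face of the sheath, followed the same direction at 24 h. Its normalised count was 296 and 398 under PTU, 306, 204, 285 and 265 at 12 h, and 459, 223, 481 and 496 at 24 h. The 3 libraries of 24 h other than library 2 were the highest of all 10, and library 2 lay among those of 12 h. Against 12 h the log2 difference was 0.65 ± 0.23 (edgeR adjusted p 0.236) with all libraries and 0.84 ± 0.14 (adjusted p 0.0371) without library 2, a rise of 1.79-fold. Against PTU it was 0.45 ± 0.17 without library 2, with an adjusted p of 0.374, although the 3 libraries lay above both of PTU for Mog and Opalin, 2 of 9 members where 13.6% of genes did so. With the Xist term and without library 2, the difference from 12 h was 0.59 ± 0.15 (adjusted p 0.21).

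The transcription start regions of these genes are shown because both genes rose at 24 h without TH 24 h library 2, beside that of Pdgfra, which fell at 12 h in the same fit. They are the 250 bases before the RefSeq start in GRCm38.p6, 5′ to 3′ on the strand of the gene: Opalin at chr19:41077114-41077363 on the minus strand, Mog at chr17:37023399-37023648 on the minus strand and Pdgfra at chr5:75152001-75152250 on the plus strand. Capitals mark the letters ACAAAG, a core bound by SOX factors, and the match lies 139 bases before the start of Opalin.
Opalin: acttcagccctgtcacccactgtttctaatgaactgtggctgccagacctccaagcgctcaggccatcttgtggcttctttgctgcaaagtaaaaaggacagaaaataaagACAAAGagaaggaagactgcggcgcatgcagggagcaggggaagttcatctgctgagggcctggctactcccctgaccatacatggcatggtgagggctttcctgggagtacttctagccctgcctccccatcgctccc
Mog: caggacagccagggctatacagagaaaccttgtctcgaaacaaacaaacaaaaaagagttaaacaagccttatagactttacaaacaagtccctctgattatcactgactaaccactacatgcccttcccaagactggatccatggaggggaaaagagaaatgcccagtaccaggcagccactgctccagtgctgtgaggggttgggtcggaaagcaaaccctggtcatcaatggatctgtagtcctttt
Pdgfra: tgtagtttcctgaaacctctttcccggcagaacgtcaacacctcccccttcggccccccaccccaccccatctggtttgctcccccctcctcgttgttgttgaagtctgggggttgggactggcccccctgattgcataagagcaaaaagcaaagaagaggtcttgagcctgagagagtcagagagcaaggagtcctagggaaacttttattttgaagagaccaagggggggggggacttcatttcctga

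Such windows were at hand for 7 of the 9 members (9 windows, since some genes have more than 1 start). On either strand, the core motif of TH response elements, AGGTCA, was in 0 of the 9 windows, against 14% of 32851 mouse windows, and its direct repeat with a spacer of 4 bases was in 0 of 9 against 0.0152% of all. The E box CAGCTG was in 0 of 9, against 13% of all. ACAAAG was in 5 of 9 windows, of Cnp, Mag, Mobp and Opalin, against 16.5% of all. These are counts of letters in short windows and say nothing of binding elsewhere.

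Mbp and Mobp, the basic proteins of compact myelin, moved with each other. The Mbp count was 12962 and 18926 under PTU, 13436, 9604, 12002 and 9991 at 12 h, and 14995, 7211, 16923 and 15866 at 24 h. Mobp was 2769 and 4417 under PTU, 3051, 2033, 2439 and 1985 at 12 h, and 3415, 1603, 4425 and 3629 at 24 h. In both genes the 12 h libraries lay mostly below the others, the groups overlapped with PTU, and TH 24 h library 2 was the lowest of all. At 12 h against PTU the log2 difference was -0.50 ± 0.29 for Mbp (edgeR adjusted p 0.362) and -0.60 ± 0.33 for Mobp (adjusted p 0.337). Without library 2 the differences were nearly the same, with adjusted p of 0.0762 and 0.0859. At 24 h against 12 h, again without library 2, they were 0.49 ± 0.15 for Mbp (adjusted p 0.0933) and 0.67 ± 0.18 for Mobp (adjusted p 0.0759), and the 3 libraries of 24 h were above all 4 of 12 h for Mbp, Mobp, Mog and Opalin, 4 of 9 members where 8.62% of genes did so. Neither gene was apart from PTU at 24 h, at -0.02 ± 0.17 for Mbp and 0.07 ± 0.22 for Mobp.

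Mag, an adhesion protein that faces the axon, and Cnp did not pass the test in any comparison. Mag was 512 and 809 under PTU, 607, 432, 532 and 456 at 12 h, and 547, 286, 775 and 668 at 24 h. Cnp was 1120 and 1684 under PTU, 1441, 1091, 1213 and 995 at 12 h, and 1412, 763, 1662 and 1556 at 24 h. The groups overlapped for both genes also without TH 24 h library 2. Without it the log2 difference at 24 h against 12 h was 0.37 ± 0.17 for Mag (edgeR adjusted p 0.228) and 0.37 ± 0.15 for Cnp (adjusted p 0.179).

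The PTU libraries, only 2 in number, were themselves far apart in these genes. PTU library 6 had 1.35 to 1.6 times the count of PTU library 3 for Mbp, Mobp, Mog, Mag and Cnp, but 1.02 times for Opalin and 1.01 times for Pdgfra. PTU library 6 was Xist-high and PTU library 3 was not.

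The lineage transcription factors were steadier. Olig1 was 1326 and 1660 under PTU, 1877, 1532, 1509 and 1644 at 12 h, and 1528, 1198, 1630 and 1712 at 24 h. Olig2 was 392 and 440 under PTU, 443, 369, 376 and 381 at 12 h, and 387, 251, 432 and 403 at 24 h. For both, the 3 groups overlapped and TH 24 h library 2 was the lowest. The log2 differences were between -0.18 and 0.14 in the 3 comparisons with all libraries and between -0.09 and 0.13 without library 2, with edgeR adjusted p of 0.527 or more in the latter.

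Pdgfra, the receptor of the precursor, was the only member with all 8 TH libraries below both PTU libraries, which 4.9% of genes showed. Its normalised count was 998 and 1006 under PTU, 747, 668, 710 and 607 at 12 h, and 849, 530, 689 and 824 at 24 h. The highest TH library was at 849 and the lower PTU library at 998. At 12 h against PTU the log2 difference was -0.55 ± 0.16 (edgeR adjusted p 0.103) with all libraries and -0.56 ± 0.11 (adjusted p 0.0161) without TH 24 h library 2, that is 0.679 times the PTU level. At 24 h it was -0.47 ± 0.16 (adjusted p 0.384) with all and -0.36 ± 0.12 (adjusted p 0.272) without library 2, so that the fall at 24 h did not pass. The difference between 24 h and 12 h was 0.19 ± 0.10 without library 2 (adjusted p 0.269). With the Xist term and without library 2 the 12 h difference was -0.53 ± 0.11 (adjusted p 0.0216). In the 4 libraries with Y-linked expression alone, 1 of PTU and 3 of 12 h, it was -0.59 ± 0.12 (adjusted p 0.0471), the lone PTU library being assumed to vary like those of 12 h. In the Xist-high libraries alone, with 1 library each of PTU and 12 h, it was -0.44 ± 0.21 without library 2 (adjusted p 0.563) and -0.44 ± 0.34 with it (adjusted p 0.982), and neither passed. With all libraries it did not pass with the Xist term (-0.53 ± 0.17, adjusted p 0.164) or with a replicate block (-0.54 ± 0.23, adjusted p 0.556). Pdgfra is also expressed by fibroblasts of vessels and meninges: the summed level of their marker list was 384 to 736 under PTU, 471 to 962 at 12 h and 353 to 813 at 24 h, overlapping in all groups. Lists of other vascular cells were lower at 12 h without overlap with PTU: pericytes were at 2969 to 3219 under PTU and 2120 to 2630 at 12 h, and endothelial cells at 1758 to 1766 and 1447 to 1641. The oligodendrocyte precursor list was also lower without overlap, at 23108 to 24416 under PTU and 20714 to 23041 at 12 h. So was the striatal projection neuron list, at 43204 to 62442 and 25065 to 40474. Among all single genes, 17.5% were lower at 12 h without overlap with PTU. Without library 2, 2 of 5 pericyte genes and 1 of 6 endothelial genes were called lower at 12 h, where 3.22% of all genes were, with list medians of -0.41 and -0.22. The part of these shifts in the Pdgfra difference was not tested.

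Since all myelin members were lower in TH 24 h library 2 than in the other libraries of 24 h, counts were also set against another member of the same library. Library scaling cancels in such a ratio. This was chosen after the values were seen and is given without a test. Opalin was at 2.83 and 1.99 counts per 1000 Mbp counts under PTU, 2.74, 2.85, 2.64 and 2.46 at 12 h, and 4.95, 5.44, 4.5 and 5.06 at 24 h. Library 2 of 24 h, the lowest of its group in counts, was the highest in this ratio. Its Opalin value rested on 35 raw counts, with an exact 95% Poisson interval of 24.4 to 48.7. Mog was at 22.8 and 21 per 1000 Mbp counts under PTU, 21.2 to 26.5 at 12 h and 28.4 to 31.2 at 24 h, where library 2 was at 30.9. The libraries of 24 h were all above the other 6 for these 2 members, whereas only 4 of 15826 genes (0.0253%) showed this order in the ratio to Mbp. The other 2 were the unnamed gene models AC132106.1 and Gm13181. This share is small in part by construction, as Mbp was 14995 to 16923 in TH 24 h libraries 1, 3 and 4 and 9604 to 13436 at 12 h. Genes that did not follow Mbp had their ratio lowered in those libraries. For Mag, Mobp and Cnp the 24 h libraries overlapped with the other 6 in the ratio to Mbp, at 36.5 to 45.8, 222 to 262 and 94.1 to 106 per 1000 Mbp counts at 24 h and at 39.5 to 45.6, 199 to 233 and 86.4 to 114 in the other 6 libraries. Both PTU libraries lay below all TH libraries for Cnp, at 86.4 and 89 against 94.1 to 114. For Mag they lay below the 12 h libraries, at 39.5 and 42.8 against 44.3 to 45.6. The share of all genes with these orders was not counted. The 24 h libraries were also all above the other 6 when Opalin was set against each of the other 8 members, in 8 of 8 ratios, but for Mog this held in 3 of 8 (Mbp, Mag and Cnp). These ratios share a numerator, and Opalin had this order in normalised counts as well, so they are not separate results. In the ratio to Olig2, 1.08% of genes showed this order, and the share was not counted for references other than Mbp and Olig2.

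At the precursor end, Pdgfra was at 255 and 229 counts per 100 Olig2 counts under PTU, 159 to 189 at 12 h and 160 to 219 at 24 h. All 8 TH libraries were below both PTU libraries, which 1.38% of genes showed in the ratio to Olig2. The same order held against Olig1 and Opalin and not against the other 5 members, 3 of 8 in all. The share of all genes with this order was not counted for Olig1 and Opalin. Olig1 was at 338 and 377.079 per 100 Olig2 counts under PTU and 377.135 to 477 in the TH libraries. In this ratio Olig1 was thus higher in all TH libraries than in both PTU libraries, by very little at the nearest. The nearest libraries, PTU library 6 and TH 24 h library 3, held 445 and 363 Olig2 reads, so that gap lies within counting error. The share of all genes with this order was not counted.

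**Figure D3:**
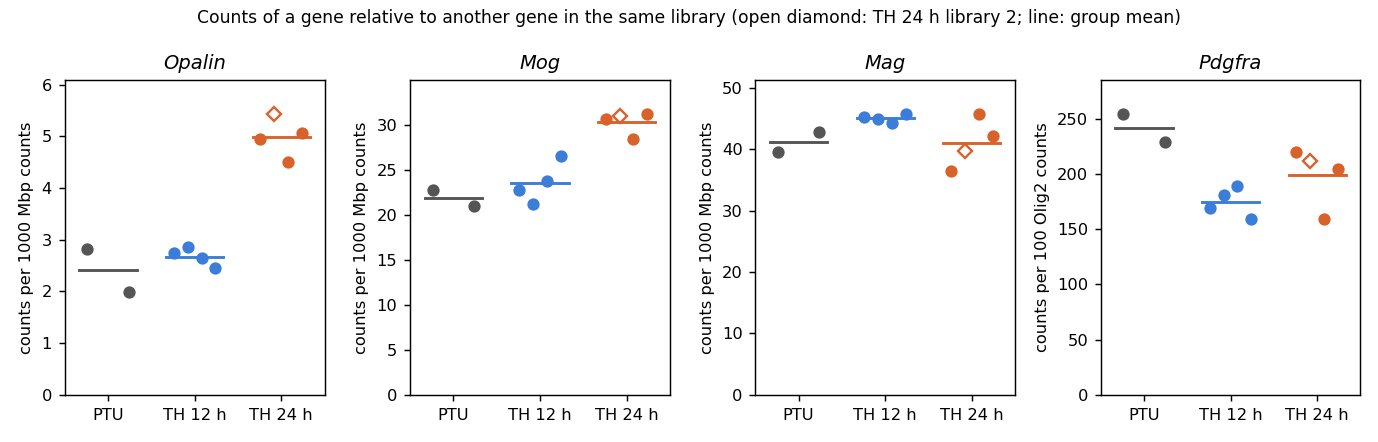
Counts of Opalin, Mog and Mag per 1000 Mbp counts and of Pdgfra per 100 Olig2 counts (vertical axes, each from 0) in the 10 striatum libraries, by group; each point is 1 library, the open diamond is TH 24 h library 2 and the line is the mean of the group. TH 24 h library 2 lies with the other libraries of 24 h for Opalin and Mog, Mag at 24 h overlaps with both other groups, and Pdgfra is lower in all TH libraries than in both PTU libraries.

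TH 24 h library 2 weighed on all 9 genes. Against the mean of the other 3 libraries of 24 h it had 45.3% of Mbp, 41.9% of Mobp, 46.6% of Mog, 43.1% of Mag, 51% of Opalin and 49.5% of Cnp, and 73.8% of Olig1, 61.6% of Olig2 and 67.3% of Pdgfra. The median over all genes was 99.4%, and 9.24% of genes were under 60%, among them the 6 myelin members. It was the lowest of the 10 libraries for 7 of 9 members, where this was so for 19.3% of genes. The summed oligodendrocyte precursor list stood at 74.8%, astrocytes at 118%, microglia at 75.3% and endothelial cells at 85.2%. The part of the shift between striatal and cortical genes in these values was not tested.

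**Figure D4:**
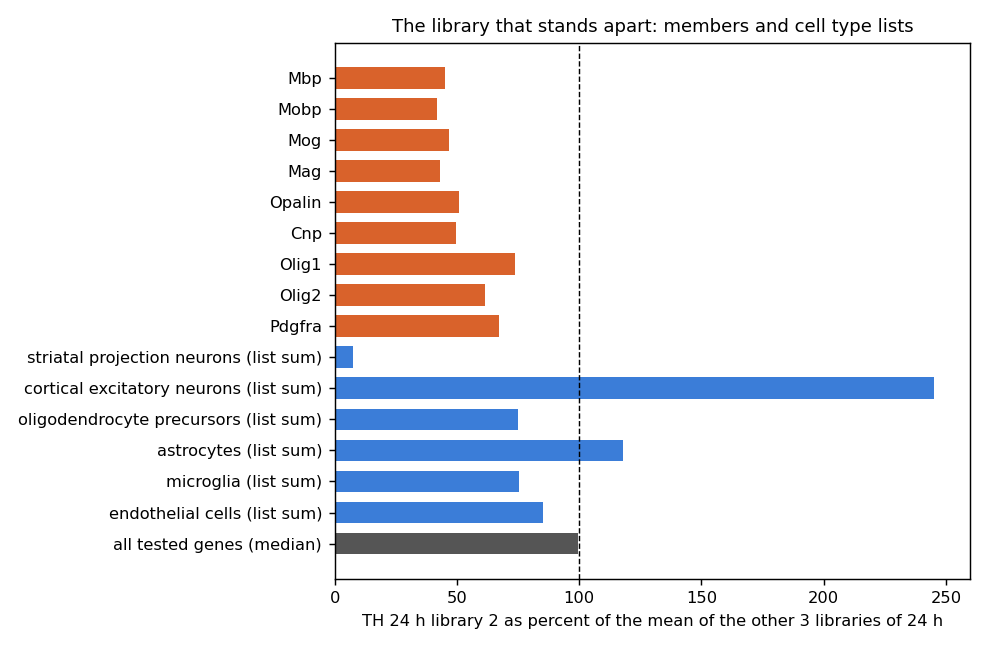
Level in TH 24 h library 2 as a percent of the mean of the other 3 libraries of 24 h (horizontal axis, from 0), for the 9 genes (orange), the summed levels of 6 cell type lists (blue) and the median over all tested genes (grey); the dashed line is 100%. The 6 myelin genes were at 41.9% to 51% and striatal projection neuron genes at 7.3%, whereas cortical excitatory neuron genes were at 245%.

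Striatal and cortical genes also differed between the groups. The summed level of the striatal projection neuron list was 43204 to 62442 under PTU, 25065 to 40474 at 12 h, and 3794 to 65253 at 24 h. That of the cortical excitatory neuron list was 5835 to 9213, 11288 to 16715 and 7573 to 26523. The 12 h libraries were thus lower in the first and higher in the second than both PTU libraries, in the same direction as library 2 of 24 h and as the lower counts of myelin genes at 12 h. TH 24 h library 4 lay within the 12 h ranges of both lists, at 30486 and 15602. Its summed mature oligodendrocyte list was nevertheless the highest of all 10 libraries, at 16285. The part of this shift in the counts of the members was not tested. With the mean of the projection neuron list as a term in a fit of all 10 libraries, a fit added after the values were seen, the differences were 1.08 ± 0.21 for Opalin at 24 h against PTU (adjusted p 0.0179), 1.18 ± 0.16 against 12 h (adjusted p 0.00589) and 0.66 ± 0.12 for Mog at 24 h against 12 h (adjusted p 0.0173), and -0.44 ± 0.11 for Pdgfra at 12 h against PTU (adjusted p 0.0372). With the mean of the mature oligodendrocyte list as the term, they were 0.90 ± 0.21 (adjusted p 0.106), 0.99 ± 0.18 (adjusted p 0.057), 0.42 ± 0.10 (adjusted p 0.0937) and -0.45 ± 0.14 (adjusted p 0.111), none of which passed. The projection neuron term, centred on its mean, was -3.16 in TH 24 h library 2 and -0.30 to 1.04 in the other libraries. That term largely set library 2 apart, so its calls are not independent of those made without this library.

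Other genes of the lineage, from lists that hold none of the 9 members, were read in the same fits. Among 33 tested genes of myelin and mature oligodendrocytes, 0 passed in any comparison with all libraries. Without TH 24 h library 2, 2 of 33 were lower at 12 h than under PTU, where 3.22% of all genes were called lower: Tspan2, a tetraspanin of early myelin (-0.62 ± 0.12, adjusted p 0.0175), and Car2, a carbonic anhydrase (-0.32 ± 0.08, adjusted p 0.036). At 24 h, 1 of 33 was higher than under PTU (0.637% of all genes), the tetraspanin Cd9 (0.60 ± 0.11, adjusted p 0.0356), and 2 of 33 were higher than at 12 h (0.208% of all genes), Cd9 (0.52 ± 0.09, adjusted p 0.0422) and Tspan2 (0.68 ± 0.11, adjusted p 0.0364). The median of the 33 was -0.17 at 12 h against PTU, 0.08 at 24 h against PTU and 0.37 at 24 h against 12 h, where that of all genes was 0.00, -0.01 and -0.01.

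Committed and newly formed oligodendrocytes gave a similar picture in 10 tested genes. With all libraries 0 of 10 passed in any comparison. Without library 2 of 24 h, 2 of 10 were lower at 12 h than under PTU, beside the 3.22% of all genes, Enpp6, a choline phosphodiesterase of newly formed oligodendrocytes (-0.61 ± 0.11, adjusted p 0.0149), and Casr, the calcium-sensing receptor (-0.86 ± 0.22, adjusted p 0.0361). Enpp6 was also higher at 24 h than at 12 h (0.60 ± 0.10, adjusted p 0.0415), 1 of 10 beside 0.208% of all genes. Bcas1, Fyn and Gpr17, the 3 of highest mean count in this list, had differences of 0.34 to 0.39 at 24 h against 12 h with adjusted p of 0.0626 to 0.0889. Among the 13 tested genes of the precursor list and the 9 of the lineage transcription factor list, 0 passed in any comparison with or without library 2. In the precursor list Ptprz1, Tnr and Cacng4 had differences of -0.15 to -0.09 at 12 h against PTU without library 2, and the 13 genes ranged from -0.53 to 0.71, with 9 negative, 4 positive and a median of -0.12. Among the transcription factors, Sox10 differed by 0.13 ± 0.15 at 12 h (adjusted p 0.633), Sox8 by -0.11 ± 0.11 (adjusted p 0.58) and Zfp488 by -0.20 ± 0.11 (adjusted p 0.279).

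The genes whose log2 level over the 10 libraries was closest to the mean of the 6 myelin members, by root mean square difference, were Ugt8a (0.07), an enzyme of myelin galactolipid synthesis, Vit (0.11), Atp10b (0.12), 2810468N07Rik (0.13) and Tspan2 (0.13), where the median gene was at 0.45. Ugt8a, Vit and Atp10b were again among the 5 closest over the 9 libraries without library 2, with Tnni1 in front (0.06). Among the members themselves, Mobp (0.12), Mbp (0.12), Mog (0.12), Cnp (0.14) and Mag (0.17) lay close to that mean and Opalin (0.36) did not. Pdgfra had no lineage gene among its 5 closest, which were Rbm7 (0.10), Tmbim1 (0.11), Psmg4 (0.11), Hnrnph3 (0.12) and Cep70 (0.12), and 5 other genes took their place without library 2.

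Some members share their position with another gene in the annotation, and the strand setting of the counting was not given in the sources used here. In GRCm38 (GENCODE M21), Mog (chr17:37010743-37023398) overlaps the small RNA gene Gm22388 on the other strand, Pdgfra (chr5:75152292-75198215) overlaps Mir7025 on its own strand and Gm42802 and Gm42803 on the other, Mobp (chr9:120149707-120181484) overlaps Gm38642 on its own strand, Cnp (chr11:100574904-100591729) overlaps Dnajc7 on the other strand, Olig1 (chr16:91269772-91271933) overlaps Gm15966 on the other strand, and Mbp overlaps the pseudogene Rpl21-ps8 on the other strand. Reads of genes on opposite strands cannot be told apart without strand, nor those of genes on the same strand with it. Mag (chr7:30899176-30914873), Olig2 (chr16:91225457-91228677) and Opalin (chr19:41061710-41077113) overlap no other gene.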

How the data were processed

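Total RNA of whole striatum was sequenced after library construction with the SENSE total RNA kit. The submitters' processing notes name mm10 and Bowtie2 2.2.6.2. The authors deposited a table of raw counts per gene symbol for each tissue. The annotation and strand setting of the counting are not given in the sources used here. The adipose tissue table was not used here. Of 55341 rows of the striatum counts, 14 with symbols turned into dates were dropped (0.146% to 0.201% of a library's counts). Libraries were scaled by TMM, and the 3 groups were fitted in 1 model by edgeR 4.0.16 in R 4.3.3 (quasi-likelihood F test), for genes averaging more than 10 normalised counts, after a check on simulated counts. SE is the log2 fold change divided by the square root of F. Adjusted p (Benjamini-Hochberg) covers all genes tested. Totals of 8056440 to 10163800 counts limit the precision of scarce genes.

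Alternatives were DESeq2 1.42.0, RLE size factors, library totals, no filter on low counts, 2 groups alone, a replicate block, a term for Xist-high libraries (Xist above 1000), and leaving out each library. Fits within Xist-high or Y-linked libraries and with a cell type list as a term were chosen after seeing the data. One gene of the mature oligodendrocyte list was left out of the lists and is not reported here. The members and lists were chosen with earlier results of these data known. Named genes were the 9 members, every gene of another lineage list that was called and its 3 of highest mean count, single genes of other cell types where they stand beside a result, and the 5 genes of most similar pattern (log2 CPM, prior count 2). Exon lengths and overlaps came from GENCODE M21 and promoter windows from RefSeq (GRCm38.p6). Same-numbered libraries of 12 h and 24 h had correlations of deviations of 0.27, 0.21, -0.06 and 0.10, so the numbers were not taken to pair samples.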

Additional observations from a re-analysis of the deposited data

Results flagged for a closer look

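In groups of 4 libraries, 18 were examined for a library far from the other 3, of which chance would flag about 1 in 20. TH 24 h library 2 stood apart in its group for Mog, at a normalised count of 223, and for Opalin, at 39.2, with 0.867 and 0.855 of the group's range lying between it and the next library. TH 12 h library 1 stood apart for Olig2, at 443, with 0.832 of the range.

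The difference between 24 h and 12 h was itself past the threshold of the edgeR test without TH 24 h library 2 for Mog (0.84) and Opalin (1.34, both log2). In that fit the differences of these genes from the shared PTU libraries were thus not equal at the 2 times. With all libraries neither gene passed (edgeR adjusted p 0.236 and 0.122), nor with the Xist term and library 2 left out. All libraries of 24 h were Xist-high and most of those of 12 h were not, so time and Xist type could not be fully told apart.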

How the results depend on the processing

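With all libraries 152, 55 and 0 genes were called at 12 h against PTU, 24 h against PTU and 24 h against 12 h, and 0 members in each. Leaving out 1 library at a time gave 0 to 1257, 0 to 115 and 0 to 78 genes and 0 to 1, 0 to 1 and 0 to 2 members. Among these, members were called only without TH 24 h library 2, and each PTU library decided nearly all genes called against PTU (0 at both times without replicate 3, 1 at both without replicate 6). Other libraries moved the count by over 1.5 times at 12 h (14, 6 and 55 without TH 12 h replicates 2, 3 and 4, 78 without TH 24 h replicate 4) and at 24 h against PTU (15 without TH 12 h replicate 2 or 3, 18 and 9 without TH 24 h replicates 1 and 4), and 1 gene was called at 24 h against 12 h without TH 12 h replicate 3. In the same order, DESeq2 called 795, 203 and 240 genes (1 member at 24 h against 12 h, Opalin), no filter 308, 104 and 41 (Opalin likewise, 1 member), the Xist term 60 and 3 (first 2 comparisons), the Xist term with TH 24 h library 2 left out 1071, 93 and 6 (1 member at 12 h, Pdgfra), the Xist-high libraries alone 0, 0 and 4, or 2, 4 and 33 with that library left out, the oligodendrocyte list term 283, 111 and 1, and the projection neuron list term 1043, 282 and 752 (1, 1 and 2 members). Taking 2 groups alone gave 1442 genes and 1 member (Pdgfra) at 12 h and 0 genes at 24 h against PTU, the Y-linked libraries alone 428 genes and 1 member at 12 h, and library totals only 36 genes at 24 h against PTU.

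Signs that turned belonged to differences that had not passed the test. At 12 h against PTU they were Olig2 (1.84e-05 in the Xist-high libraries, with or without TH 24 h library 2, 0.079 and 0.068 with the oligodendrocyte and projection neuron terms) and Cnp (0.047 with the oligodendrocyte term). At 24 h against PTU they were Olig1 (-0.11 with the Xist term, -0.035 with the Xist term and library 2 left out, -0.15 in the Xist-high libraries and -0.0497 in these with library 2 left out, -0.035 with library totals), Cnp (0.014 with the oligodendrocyte term) and, with the projection neuron term, Mbp (0.062), Mag (0.071), Mobp (0.17) and Cnp (0.20). At 24 h against 12 h they were Mbp (-0.026), Mag (-0.18) and Cnp (-0.16) with the Xist term, Mag (-0.10), Cnp (-0.10) and Pdgfra (-0.052) in the Xist-high libraries, and Mag (-0.12) and Cnp (-0.033) with the oligodendrocyte term. Leaving out 1 library, the range crossed 0 for Cnp (-0.51 to 0.081), Olig1 (-0.025 to 0.31) and Olig2 (-0.17 to 0.0013) at 12 h, for Cnp (-0.34 to 0.27), Mag (-0.52 to 0.15), Mbp (-0.48 to 0.085), Mobp (-0.45 to 0.24) and Olig1 (-0.14 to 0.19) at 24 h against PTU, and for Mag (-0.016 to 0.37), Olig2 (-0.17 to 0.041) and Pdgfra (-0.0032 to 0.19) at 24 h against 12 h. The cause was not tested.

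With the replicate block 0, 0 and 7 genes and 0 members were called. In this fit of shared replicate numbers, PTU meets the TH groups in replicate 3 alone, and the difference turned at 12 h for Mbp (0.029), Mog (0.024), Mag (0.29), Mobp (0.071), Cnp (0.28) and Olig2 (0.10), and at 24 h against PTU for Mbp (0.26), Mag (0.39), Mobp (0.46) and Cnp (0.42). The alternatives refit the same libraries or parts of them, so they are not independent of each other. Among them, Pdgfra at 12 h kept its sign in 23 of 23 and Opalin at 24 h in 22 of 22 against PTU and 22 of 22 against 12 h. The adjusted p ranged from 0.0123 to 0.982, from 0.0179 to 0.973 and from 0.00589 to 1.00.

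The limits are 2 PTU libraries, the mixed Xist and Y-linked expression under 1 sex label, the shift between striatal and cortical genes, and 27 to 80 reads of Opalin in a library.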
